A study of Homo sapiens with 12 samples.

Results

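In RCC4 cells with loss of VHL, 70 protein-coding genes gave almost no RNA, although the same line with VHL put back expressed each of them. RCC4 is a cell line from a human clear cell renal cell carcinoma. The 70 genes were chosen on CPM (the count of a gene over the library total, times 1000000) in the solvent-treated libraries: at least 3 CPM in each VHL+ library and a mean of at most 0.3 CPM over the VHL- libraries. Y-linked genes and symbols beginning with COL4, LAM, EPH or NFI were left out. They are 70 of 19889 protein-coding genes and of 60663 gene IDs in the counts, and 70 of the 10701 protein-coding genes with at least 3 CPM in each VHL+ DMSO library. Both thresholds were passed by 74 gene IDs, of which 3 were not protein-coding and 1 (EPHA10) was left out by its symbol. The opposite rule, silent in VHL+ and expressed in VHL-, found 24 genes.

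The 12 libraries formed 4 groups of 3: VHL- cells with 5 µM JQ1, VHL- cells with DMSO, VHL+ cells with 5 µM JQ1 and VHL+ cells with DMSO. VHL- cells carry the loss of VHL, and VHL+ cells are RCC4 with VHL reintroduced. All 4 groups were grown in high glucose medium with serum and geneticin. JQ1 is a small molecule that displaces BET proteins from acetylated chromatin; the labels call it a MYC inhibitor, and DMSO is its solvent. Each VHL state is a single line, so VHL and anything else that differs between the lines cannot be told apart. The construct that carries VHL, the selection of VHL+ cells and the hours of treatment are not stated in the labels. Nor do they say that the 3 libraries of a group came from different cultures, in which case the p-values would cover technical spread alone.

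VHL is the substrate-recognising part of an ubiquitin ligase that binds the hydroxylated alpha subunits of hypoxia-inducible factors (HIF) and sends them to degradation. Cells that lack VHL keep HIF active in normal oxygen, which is the defining lesion of most clear cell renal carcinomas. Promoters rich in CG dinucleotides can be silenced by DNA methylation or by Polycomb proteins.

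RNA of VHL itself was lower in VHL- cells under both treatments. It gave 33.9, 35.1 and 32.2 CPM in VHL- JQ1 libraries, against 204, 178 and 208 CPM in VHL+ JQ1 libraries. In the DMSO libraries it gave 22.3, 31.6 and 29.4 CPM in VHL- cells, against 69.5, 61.3 and 80.7 CPM in VHL+ cells. Groups did not overlap at either treatment, and the counts do not tell which VHL allele the RNA comes from. Library totals ran from 15452949 to 32502310 counts. The 12 renal markers differed widely in mean level over the groups. The lineage factor PAX8 stood at 272 to 579 CPM, but LHX1 only at 0.296 to 2.05 CPM. CDH16 ran from 3.43 CPM (VHL- JQ1) to 146 CPM (VHL+ DMSO), and CA9 from 0.126 CPM (VHL+ DMSO) to 86.3 CPM (VHL- DMSO). Markers of endothelial cells and leukocytes reached at most 10.7 CPM (ESAM) and 4.06 CPM (CSF1R) in any library. Fibroblast and mural markers reached at most 7.47 CPM (PDGFRB), and neuronal and melanocyte markers 8.21 CPM (SYP).

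Sequences before the RefSeq starts of 4 of the genes are shown for how they differ in CG dinucleotides. SLC34A2 and PRTG had the highest levels in VHL+ JQ1 libraries among the genes with a promoter in the RefSeq table, VCAM1 the largest fall under JQ1 in VHL+ cells, and AQP4 the largest rise. Each line holds the 250 bases before the RefSeq start (build GRCh38.p14), read 5′ to 3′ on the gene's strand. Capitals mark CG dinucleotides. The SLC34A2 window is chr4:25655601-25655850 (plus strand, 33 CG), PRTG chr15:55743153-55743402 (minus strand, 27 CG), VCAM1 chr1:100719492-100719741 (plus strand, 2 CG) and AQP4 chr18:26865804-26866053 (minus strand, 1 CG). The SLC34A2 window lies inside the gene as GENCODE annotates it, which begins further upstream, at position 25648011, and the counts do not tell which start is used.
SLC34A2: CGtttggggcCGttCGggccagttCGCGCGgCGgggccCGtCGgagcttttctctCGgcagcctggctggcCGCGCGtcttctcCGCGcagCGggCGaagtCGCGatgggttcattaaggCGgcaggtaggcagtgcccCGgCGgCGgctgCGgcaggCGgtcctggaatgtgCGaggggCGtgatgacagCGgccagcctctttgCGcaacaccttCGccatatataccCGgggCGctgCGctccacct
PRTG: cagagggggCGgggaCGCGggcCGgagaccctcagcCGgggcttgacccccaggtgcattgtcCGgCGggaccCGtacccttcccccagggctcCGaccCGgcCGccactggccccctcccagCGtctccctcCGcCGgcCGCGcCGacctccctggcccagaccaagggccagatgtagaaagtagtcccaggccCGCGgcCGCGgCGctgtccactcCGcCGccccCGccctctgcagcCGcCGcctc
VCAM1: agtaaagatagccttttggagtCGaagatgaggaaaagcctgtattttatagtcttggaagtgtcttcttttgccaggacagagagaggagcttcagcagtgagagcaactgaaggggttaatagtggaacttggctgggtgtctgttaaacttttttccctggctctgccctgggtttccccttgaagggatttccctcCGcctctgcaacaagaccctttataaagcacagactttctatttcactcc
AQP4: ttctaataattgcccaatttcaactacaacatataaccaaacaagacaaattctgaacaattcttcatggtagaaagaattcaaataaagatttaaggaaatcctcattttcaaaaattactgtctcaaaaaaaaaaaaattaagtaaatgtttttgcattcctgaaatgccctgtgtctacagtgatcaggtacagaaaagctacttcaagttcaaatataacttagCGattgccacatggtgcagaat

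The levels that chose the genes are a description. Mean levels in VHL- DMSO libraries ran from 0 to 0.299 CPM over the 70 genes with a median of 0.105, against 3.21 to 215 CPM in VHL+ DMSO libraries with a median of 8.36. Of the 70, 31 stood at 10 CPM or more in VHL+ DMSO libraries. In VHL- DMSO libraries 2 genes had no count at all, namely ESRRG, an orphan nuclear receptor, and NPNT, the matrix protein nephronectin that binds integrins in kidney development, and another 18 had 1 to 3 counts over the group. Just inside the upper threshold, the lowest VHL+ DMSO library had 3.02 CPM for CPEB1, 3.05 for CHST13 and 3.06 for GALM. Just outside were SORL1 with 2.89, TNFSF14 with 2.80 and TRPV4 with 2.71 CPM. At the lower threshold, RASAL1, PRTFDC1 and UGT8 averaged 0.299, 0.295 and 0.294 CPM in VHL- DMSO libraries, and just outside it were CTRB2 with 0.302, SNPH with 0.323 and CTSS with 0.348 CPM.

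The JQ1 libraries took no part in the choice, and there all 70 genes were again lower in VHL- than in VHL+ cells. Every one passed edgeR's quasi-likelihood test at a Benjamini-Hochberg adjusted p under 0.05 over 20714 genes, with a largest adjusted p of 0.000933. Among all tested genes 21.2% were lower in VHL- JQ1 at this threshold, and 32% of the 10701 expressed protein-coding genes. None of the 70 was higher, against 19.7% of all tested genes. The 3 VHL- JQ1 libraries lay below all 3 VHL+ JQ1 libraries for each of the 70 genes, which held for 21.9% of all tested genes. Fitted log2 fold changes, VHL- over VHL+, ran from -9.48 (SLC34A2) to -2.42 (PLEKHA4). Their median was -5.14, against 0.03 over all tested genes. At least 16-fold lower were 54 of the 70, against 0.613% of all tested genes. The rule had already chosen the 70 for a wide gap between the same lines under DMSO. A gap in the same direction under JQ1 was therefore likely beforehand. The shares of all tested genes, which were not chosen this way, only describe the background.

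Fitted values carry a prior count of 2, which pulls changes of near-silent genes towards 0. Without it, and with the gene that had no count set at its floor of 3 counts over the group, the median log2 ratio of summed CPM was -5.94. In bulk RNA, fewer expressing cells and less RNA per cell cannot be told apart. Counts of 17 of the 70 genes summed to 1 to 3 over the VHL- JQ1 libraries, so their fold changes rest on very few reads. The standard errors (SE) printed below combine fold changes that carry the prior count with a test statistic computed without it. They are approximate and can understate the spread of genes with few reads in VHL- cells.

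**Figure D1:**
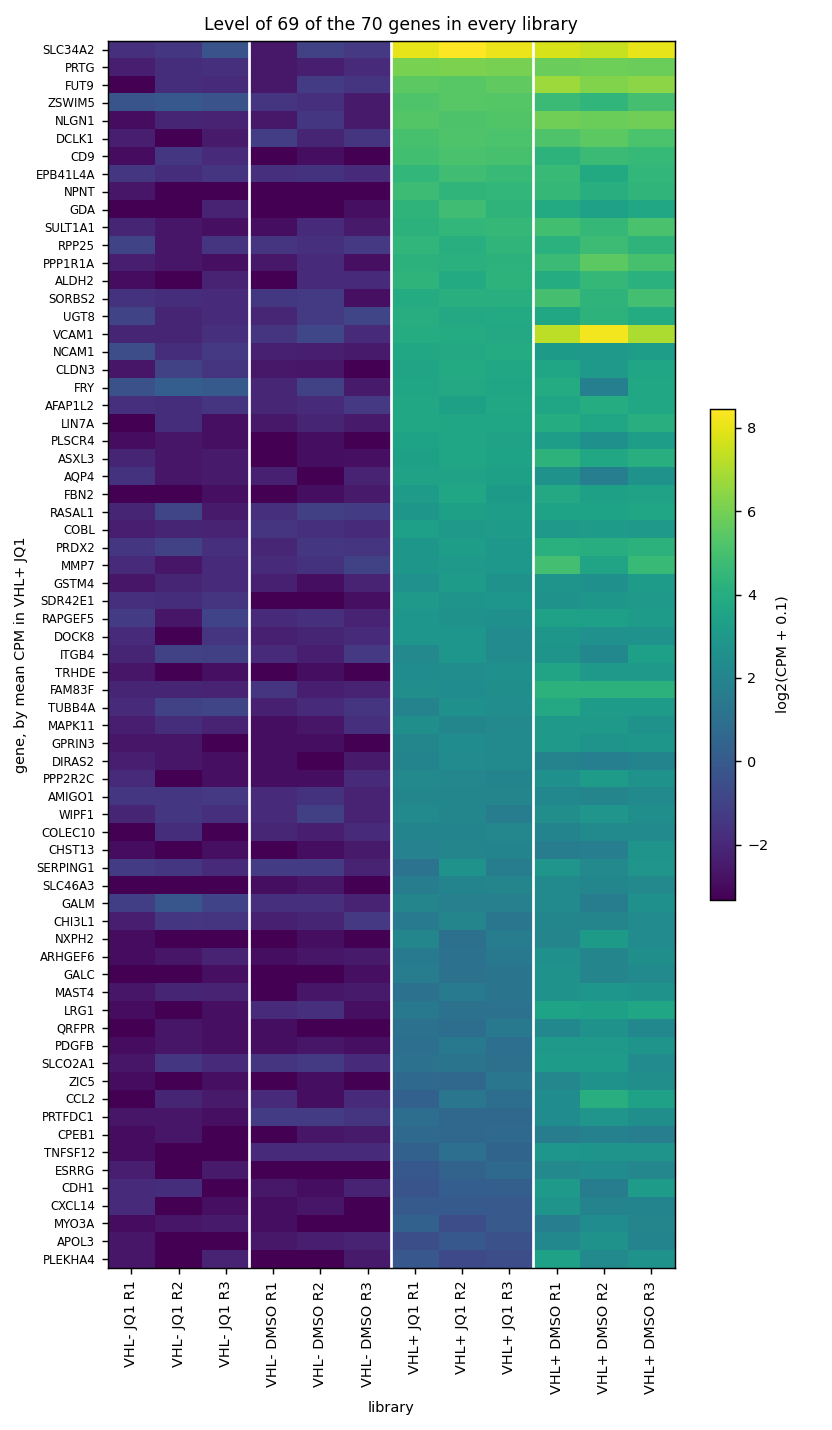
Level of 69 of the 70 genes (rows) in each of the 12 libraries (columns), as log2 CPM with a small offset, with genes ordered by their mean level in VHL+ JQ1 libraries. The 6 VHL- libraries are low on the colour scale for most genes drawn, and the 6 VHL+ libraries of the same row are above them. FRY and ZSWIM5 stand higher than the other genes drawn in VHL- JQ1 libraries, at means of 0.865 and 0.754 CPM.

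The single largest difference belonged to a transport protein. SLC34A2, the sodium-dependent phosphate cotransporter NaPi-IIb (ENSG00000157765, chr4:25648011-25678748, plus strand), gave 0.197, 0.259 and 0.697 CPM in VHL- JQ1 libraries, against 262, 351 and 280 CPM in VHL+ JQ1 libraries. The log2 fold change was -9.48 ± 0.32 (SE, adjusted p = 4.7e-12). Even scaled to exon length it was the most abundant of the 70 in VHL+ JQ1 libraries, at 59.0 CPM per kb, with the tight junction protein CLDN3 next at 10.3 and the tetraspanin CD9 at 7.69 CPM per kb. AQP4, a water channel, gave 0.230, 0.0647 and 0.0820 CPM in VHL- JQ1 libraries, against 10.9, 11.1 and 10.3 CPM in VHL+ JQ1 libraries (log2 fold change -5.78 ± 0.40). SLC46A3, a lysosomal transporter, had no count in VHL- JQ1 libraries and 3.07, 3.90 and 3.95 CPM in VHL+ JQ1 libraries, which is at least 84.0-fold lower in VHL- cells against the floor of 3 counts over the group. SLCO2A1, a prostaglandin transporter, had the smallest change of the 4, at -3.42 ± 0.36. These 3 solute carriers are 3 of 189 solute carrier genes expressed in VHL+ DMSO libraries, beside 70 of 10701 for all expressed protein-coding genes.

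Proteins of adhesion, junctions and matrix had the lowest median of the 6 role groups, -5.92 over 14 genes, with a range of -8.30 to -2.54. PRTG, an immunoglobulin superfamily receptor of the developing nervous system (ENSG00000166450, chr15:55611546-55743090, minus strand), gave 0.0985, 0.194 and 0.205 CPM in VHL- JQ1 libraries, against 66.8, 69.6 and 64.8 CPM in VHL+ JQ1 libraries. Its log2 fold change was -8.30 ± 0.20 (adjusted p = 1.1e-13), and its 6 VHL+ libraries stayed within 53.5 to 69.6 CPM. NLGN1, the synaptic adhesion protein neuroligin 1 (ENSG00000169760, chr3:173396284-174286644, plus strand), gave 0.0328, 0.129 and 0.123 CPM in VHL- JQ1 libraries, against 39.6, 35.8 and 38.4 CPM in VHL+ JQ1 libraries (-8.00 ± 0.25). CD9, which organises membrane microdomains, had 0.0328, 0.259 and 0.164 CPM in VHL- JQ1 libraries and 29.9, 33.5 and 32.8 CPM in VHL+ JQ1 libraries. NPNT had 0.0657, 0 and 0 CPM in VHL- JQ1 libraries and 26.7, 20.7 and 21.8 CPM in VHL+ JQ1 libraries. In none of the 4 did the groups come near each other.

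Further genes of this group were the fibrillin FBN2, the junction proteins CLDN3 and LIN7A, the actin nucleator COBL, the hemidesmosome integrin ITGB4, the neural adhesion molecules NCAM1 and AMIGO1, the matrix protease MMP7 and the adhesion molecule VCAM1. At the low end was CDH1, E-cadherin, the adhesion protein of epithelial junctions (ENSG00000039068, chr16:68737225-68835548, plus strand). It gave 0.164, 0.194 and 0 CPM in VHL- JQ1 libraries, against 0.742, 1.03 and 1.08 CPM in VHL+ JQ1 libraries. The change was -2.54 ± 0.51 (adjusted p = 9.0e-04), at levels well under the 7.88, 3.06 and 8.65 CPM of the VHL+ DMSO libraries.

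Regulators of transcription, chromatin and RNA numbered 7, with a median of -5.75. ZSWIM5, a zinc finger protein, had 0.722, 0.841 and 0.697 CPM in VHL- JQ1 libraries and 36.6, 41.5 and 41.2 CPM in VHL+ JQ1 libraries (-5.75 ± 0.21). It had more reads in VHL- JQ1 libraries than most of the 70. Among the others were ASXL3 (a Polycomb-related chromatin protein), RPP25 (a subunit of RNase P), CPEB1 (a regulator of poly(A) tails), ESRRG and ZIC5, a zinc finger factor of neural development.

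Enzymes of metabolism numbered 13, with a median of -5.40. FUT9, the fucosyltransferase that makes the Lewis x antigen (ENSG00000172461, chr6:96015984-96215612, plus strand), gave 0, 0.194 and 0.164 CPM in VHL- JQ1 libraries, against 44.1, 41.8 and 47.8 CPM in VHL+ JQ1 libraries (-8.11 ± 0.32). GDA, guanine deaminase, gave 0, 0 and 0.123 CPM in VHL- JQ1 libraries, against 20.02, 28.2 and 20.4 CPM in VHL+ JQ1 libraries (-7.72 ± 0.36). SULT1A1, a phenol sulfotransferase, changed by -7.18 ± 0.27 and ALDH2, the mitochondrial aldehyde dehydrogenase, by -7.21 ± 0.38. GALM, which interconverts the anomers of galactose, had the smallest change of the group, at -2.85 ± 0.30. SULT1A1, GSTM4 (a glutathione transferase), TUBB4A (a beta tubulin) and APOL3 have close paralogs, so the authors' counting could have split their reads.

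Signalling and cytoskeletal genes were the largest group, 23 genes with a median of -4.89. DCLK1, a microtubule-associated kinase, gave 0.0985, 0 and 0.0820 CPM in VHL- JQ1 libraries, against 32.8, 37.2 and 34.9 CPM in VHL+ JQ1 libraries (-8.02 ± 0.30). EPB41L4A, a FERM-domain protein, changed by -6.46 ± 0.25. PDGFB, the B chain of platelet-derived growth factor, gave 0.0328, 0.0647 and 0.0410 CPM in VHL- JQ1 libraries, against 1.89, 2.57 and 1.84 CPM in VHL+ JQ1 libraries (-4.32 ± 0.31). FRY, a microtubule-binding protein of the mitotic spindle (ENSG00000073910, chr13:31846713-32299122, plus strand), had the highest mean of the 70 in VHL- JQ1 libraries, 0.865 ± 0.192 CPM, against 12.8 ± 0.710 CPM in VHL+ JQ1 libraries (SD, n = 3 each). PLEKHA4, a protein with a phosphoinositide-binding domain, had the smallest change, with 0.0657, 0 and 0.123 CPM in VHL- JQ1 libraries and 0.809, 0.515 and 0.596 CPM in VHL+ JQ1 libraries.

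Secreted and immune genes, 9 in number, had the smallest changes as a group, with a median of -3.89 and a range of -5.21 to -2.74. None of them exceeded a mean of 4.00 CPM in VHL+ JQ1 libraries, and low levels there narrow the range these changes can take. Their median change with JQ1 in VHL+ cells, -2.08, was the lowest of the role groups. Under DMSO, which chose the genes, their log2 fold changes, VHL- over VHL+, ran from -6.09 (NXPH2) to -4.23 (CHI3L1). The part of level in the ranking was not tested. CCL2, a chemokine that attracts monocytes, gave 0, 0.129 and 0.0820 CPM in VHL- JQ1 libraries, against 1.15, 2.35 and 1.79 CPM in VHL+ JQ1 libraries (-3.89 ± 0.60). CXCL14, another chemokine, changed by -2.74 ± 0.44. These are 2 of 8 chemokine genes expressed in VHL+ DMSO libraries, beside 70 of 10701 for all expressed protein-coding genes. Many symbol families were looked through, and only those with 2 or more of the 70 genes are given as families. Others held 1 or none, such as 0 of 383 expressed ZNF genes and 0 of 134 expressed TMEM genes. Others were the complement inhibitor SERPING1, the collectin COLEC10, the chitinase-like protein CHI3L1, the cytokine TNFSF12, LRG1, NXPH2 and APOL3. For TNFSF12, 33.2% of its exon bases are shared with other annotated genes, among them the readthrough TNFSF12-TNFSF13, so its reads cannot be assigned with certainty. The same holds at 29.8% for CPEB1 and 21.3% for EPB41L4A, whose overlapping genes include its antisense RNA, and at lower shares for TUBB4A (15.9%), PRDX2 (14.1%), PPP1R1A (11.1%) and others.

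**Figure D2:**
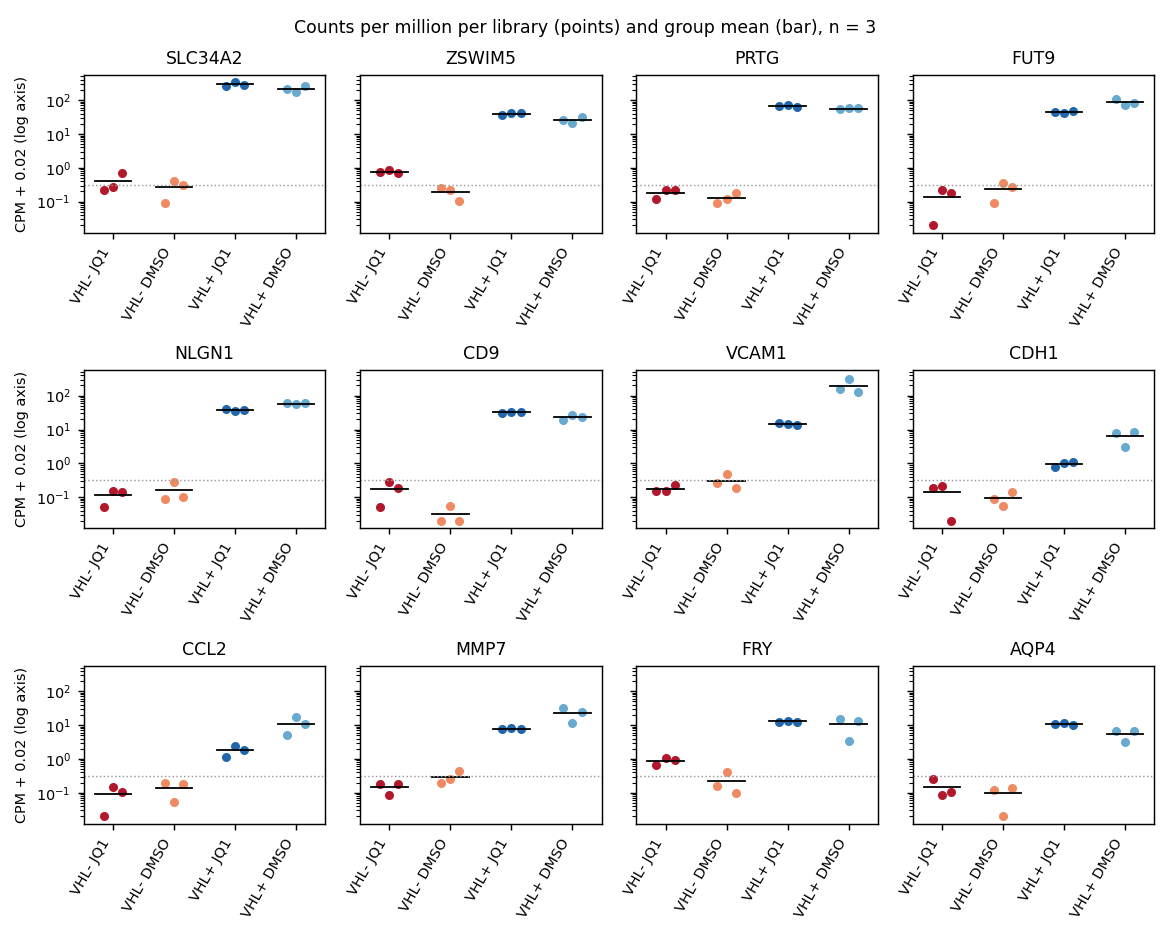
CPM on a log axis for named genes in the 12 libraries, 1 point per library, with the groups in the order VHL- JQ1, VHL- DMSO, VHL+ JQ1 and VHL+ DMSO; 0.02 was added to each value and the dotted line stands at 0.3 CPM. VHL- points lie at or under 1.04 CPM for all genes drawn, and SLC34A2 reaches 351 CPM in a VHL+ JQ1 library.

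The genes stayed near 0 when VHL- cells were treated with JQ1. Of the 70 genes, 63 had a mean of 0.3 CPM or less in VHL- JQ1 libraries. Among the other 7 were FRY (0.865 CPM), ZSWIM5 (0.754), GALM (0.516), SLC34A2 (0.384), NCAM1 (0.357) and TUBB4A (0.335), and no gene averaged 1 CPM. Of all tested genes, 6.32% had a mean of 0.3 CPM or less in VHL- JQ1 libraries. That share is no like comparison, since the rule chose the 70 for such a mean in VHL- DMSO libraries. Tested genes only had to pass the filter on low counts. Summed over the 70 genes, levels were 9.92, 11.6 and 11.4 CPM in VHL- JQ1 libraries and 6.99, 9.71 and 8.81 CPM in VHL- DMSO libraries. In VHL+ cells the sums were 1048, 1169 and 1087 CPM with JQ1 and 1396, 1390 and 1387 CPM with DMSO. Summed counts were 758 over the VHL- JQ1 group and 712 over the VHL- DMSO group.

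In VHL- cells, JQ1 and DMSO libraries separated for some of the 70 genes. For 8 of the 70, all 3 VHL- JQ1 libraries lay above all 3 VHL- DMSO libraries, among them FRY, ZSWIM5, NCAM1, GALM, SDR42E1, AMIGO1 and ASXL3, against 16.9% of all tested genes. For FRY the values were 0.657, 1.04 and 0.902 CPM in VHL- JQ1 libraries and 0.138, 0.399 and 0.0812 CPM in VHL- DMSO libraries. For ZSWIM5 they were 0.722, 0.841 and 0.697 CPM in VHL- JQ1 libraries and 0.241, 0.199 and 0.0812 CPM in VHL- DMSO libraries. For 6 genes (APOL3, TNFSF12, PRTFDC1, MMP7, DCLK1 and COBL) all JQ1 libraries lay below all DMSO libraries, against 22.7% of tested genes. The DMSO libraries chose the genes for low values, so these counts carry no test. With so few reads in VHL- cells, ties and zeros also limit how often the groups can separate. The shares of all tested genes are therefore no like comparison.

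In VHL+ cells, where the 70 genes are expressed, JQ1 and DMSO libraries can be set side by side only as a description, since the DMSO libraries chose the genes. Relative to DMSO, 18 of the 70 were at least 2-fold lower with JQ1, against 9.41% of all tested genes and 5.94% of the 10701 expressed protein-coding genes. At least 2-fold higher was 1 gene, AQP4, against 4.35% and 3.02%, and on total counts alone AQP4 fell short of 2-fold. The median log2 fold change, JQ1 over DMSO, was -0.43 for the 70 genes, -0.03 for all tested genes and 0.04 for the 10701. All 3 JQ1 libraries lay below all 3 DMSO libraries for 36 genes (29.6% of all tested genes and 33.2% of the 10701) and above them for 8 (18.3% and 24.5%), and the groups overlapped for 26. With JQ1, 49 of the 70 kept 3 CPM or more in each VHL+ library. The share of the 10701 that did so was not counted. Genes chosen by a floor in some libraries can fall under it in others without any effect of the drug.

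VCAM1, which binds leukocyte integrins (ENSG00000162692, chr1:100719742-100739045, plus strand), had the largest difference. It gave 15.5, 14.995 and 13.8 CPM in VHL+ JQ1 libraries, against 156, 304 and 127 CPM in VHL+ DMSO libraries, a log2 fold change of -3.63. In VHL- cells it gave 0.131, 0.129 and 0.205 CPM with JQ1 and 0.241, 0.465 and 0.162 CPM with DMSO. The gap between VHL- and VHL+ cells thus stood at -6.13 ± 0.42 under JQ1 (adjusted p = 1.3e-08) and at -9.11 under DMSO. PLEKHA4 gave 0.809, 0.515 and 0.596 CPM in VHL+ JQ1 libraries, against 10.6, 4.78 and 6.37 CPM in VHL+ DMSO libraries (-3.23).

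The next in size were APOL3 (-2.59), CDH1 (-2.58), CCL2 (-2.49) and CXCL14 (-2.20), and in none of these 6 did the JQ1 and DMSO libraries overlap. CCL2 gave 1.15, 2.35 and 1.79 CPM in VHL+ JQ1 libraries, against 5.24, 16.8 and 10.5 CPM in VHL+ DMSO libraries. By role, 5 of the 9 secreted and immune genes were at least 2-fold lower with JQ1, 6 of the 23 signalling and cytoskeletal genes, 3 of the 14 adhesion genes, 2 of the 7 regulators, 1 of the 13 enzymes and 1 of the 4 transport genes.

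On the other side, AQP4 (ENSG00000171885, chr18:26852038-26865818, minus strand) gave 10.9, 11.1 and 10.3 CPM in VHL+ JQ1 libraries, against 6.48, 3.13 and 6.52 CPM in VHL+ DMSO libraries (log2 fold change 1.11). GDA followed with 20.02, 28.2 and 20.4 CPM in VHL+ JQ1 libraries and 14.8, 10.7 and 13.3 CPM in VHL+ DMSO libraries (0.94). NCAM1 (0.81), ZSWIM5 (0.71), SLC34A2 (0.59) and CD9 (0.59) came next, and in all 6 the libraries did not overlap.

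**Figure D3:**
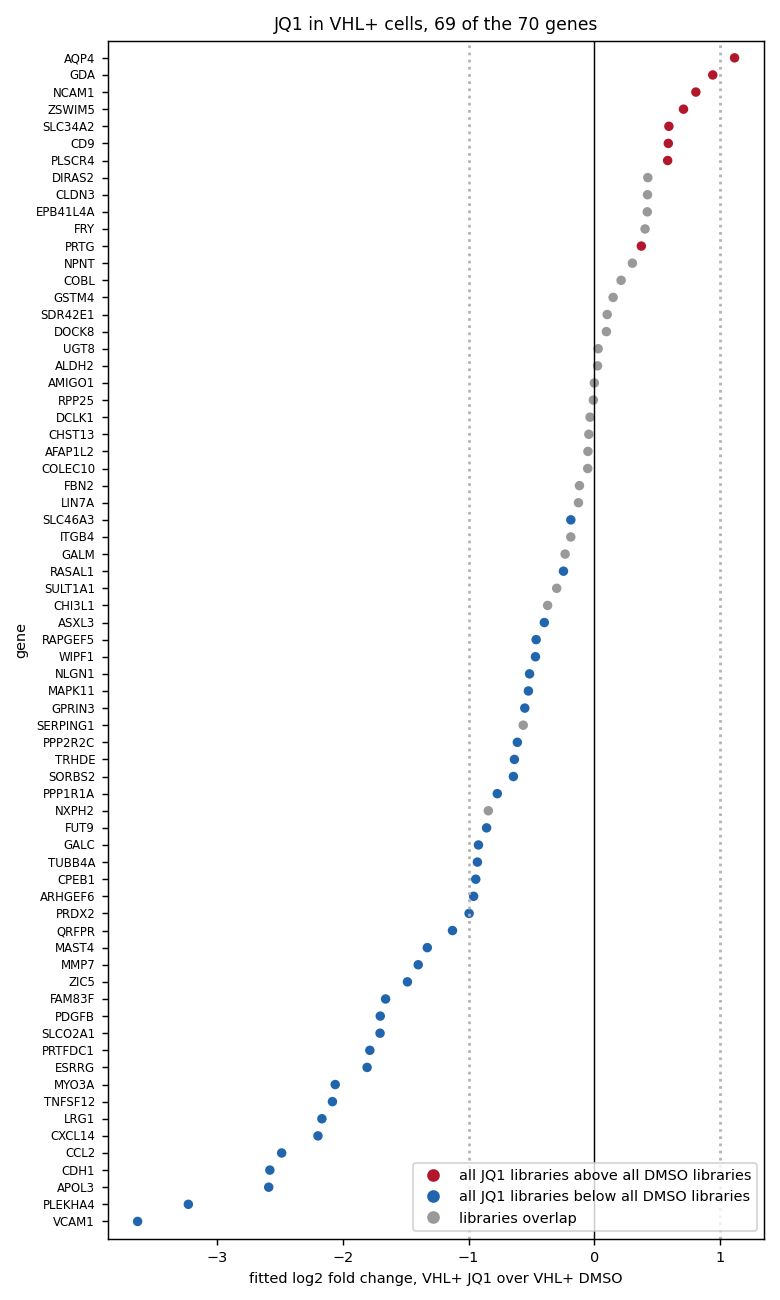
Fitted log2 fold change of 69 of the 70 genes in VHL+ cells, JQ1 over DMSO (x axis), with genes in order down the page and dotted lines at 2-fold; colours mark genes whose JQ1 libraries all lie above, all lie below or overlap the DMSO libraries. VCAM1 lies at -3.63 and AQP4 at 1.11, 18 genes are beyond the lower line and 1 beyond the upper one.

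The spread between replicates was wider for the 70 genes than for expressed genes at large in VHL+ cells. The median of SD over mean was 11.8% for the 70 in VHL+ JQ1 libraries, against 7.32% for the 10701 genes, and in VHL+ DMSO libraries it was 19.0% against 12.4%. The part of their level in this was not tested. The second VHL+ DMSO library was the lowest of the 3 for 37 genes and the highest for 24. The same count was not made over the 10701 genes, so whether this is particular to the 70 was not tested. FRY, for example, gave 15.2, 3.28 and 13.3 CPM in the VHL+ DMSO libraries, and MMP7 30.9, 11.5 and 25.0 CPM. VCAM1 went the other way, with its highest value in that library.

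The 70 genes were spread over the genome. They lay on 21 chromosomes and were 70 of the 10701 expressed genes. The highest shares were 4 of 190 expressed genes on chromosome 13 (2.11%), 7 of 382 on chromosome 4 (1.83%) and 4 of 248 on chromosome 22 (1.61%). Low shares were 3 of 730 on chromosome 2 (0.411%) and 1 of 578 on chromosome 6 (0.173%), with none on chromosomes 20 and 21. Only 3 pairs had starts within 1 Mb of each other: GSTM4 and AMIGO1 at 146 kb on chromosome 1, PDGFB and FAM83F at 750 kb on chromosome 22, and MYO3A (a class III myosin) and PRTFDC1 (a phosphoribosyltransferase-like protein) at 981 kb on chromosome 10. PDGFB and FAM83F were both lower with JQ1 in VHL+ cells (-1.70 and -1.66), as were MYO3A and PRTFDC1 (-2.06 and -1.78). GSTM4 had 7.27 CPM in VHL+ JQ1 and 7.12 CPM in VHL+ DMSO cells, and AMIGO1 4.07 CPM in VHL+ JQ1 and 4.41 CPM in VHL+ DMSO cells.

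Many genes next to the 70 were expressed in both lines, and some shared the direction of the 70. Of the 140 nearest protein-coding neighbours, 1 on each side, none belonged to the set, and 75 (53.6%) stood at 1 CPM or more in both DMSO groups. The share was 67.7% for neighbours of the 10701 expressed genes. Some of the 75 still differed in level between the lines, in either direction. CHST9, next to AQP4, had 4.01 CPM in VHL- DMSO cells and 214 CPM in VHL+ DMSO cells. MAL2, next to COLEC10, had 4.64 CPM in VHL- DMSO cells and 109.5 CPM in VHL+ DMSO cells. A further 9 neighbours (6.43%, against 2.65%) reached 1 CPM only in VHL+ DMSO cells, none did so only in VHL- cells, and 56 were under it in both. One of the 9 was MAPK12, next to MAPK11, both p38 MAP kinases, with 0.928 CPM in VHL- DMSO cells and 16.9 CPM in VHL+ DMSO cells. Another was TNFRSF11B, osteoprotegerin, next to COLEC10, with 0.979 CPM in VHL- DMSO cells and 4.88 CPM in VHL+ DMSO cells. Active neighbours could lie close by: INTS12, 1.21 kb from NPNT, had 7.96 CPM in VHL- DMSO cells and 9.05 CPM in VHL+ DMSO cells. PPP1R15A, 3.76 kb from PLEKHA4, had 192 CPM in VHL- DMSO cells and 92.7 CPM in VHL+ DMSO cells. ACSS3, which reached 1 CPM only in VHL+ DMSO cells, lay nearly as close to LIN7A as INTS12 to NPNT. Close neighbours thus included both kinds.

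**Figure D4:**
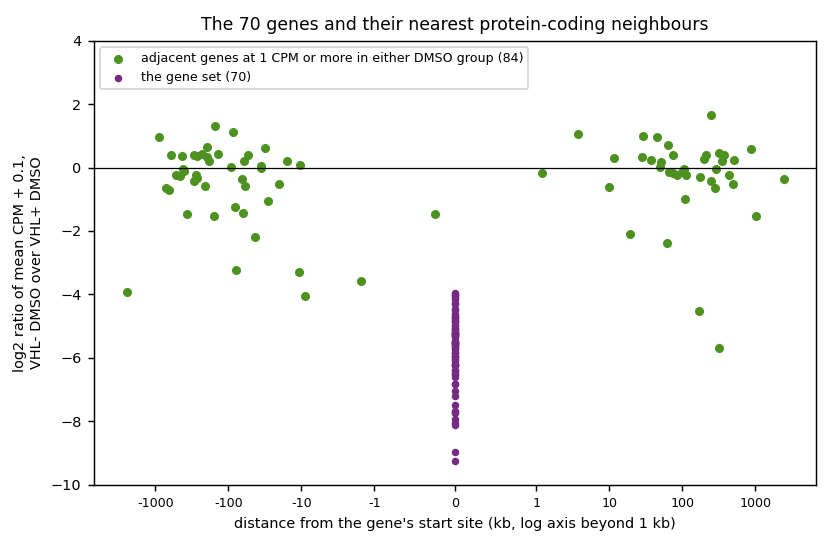
Log2 ratio of mean CPM with 0.1 added, VHL- DMSO over VHL+ DMSO (y axis), for the 70 genes and their nearest protein-coding neighbours against distance from the gene in kb (x axis, logarithmic beyond 1 kb). The 84 neighbours with 1 CPM or more in either DMSO group are drawn and lie on both sides of 0, and the 70 genes lie far below it by their choice.

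RefSeq promoters of 300 bases (250 before to 50 after the start, GRCh38.p14) were found for 50 of the 70 genes. Of these, 28 (56%) were rich in CG (at least 55% G and C, observed over expected CG of at least 0.75), 12 (24%) were in between and 10 (20%) were poor (observed over expected under 0.48). Among 8873 promoters of the expressed genes 66.3% were rich and 9.49% poor, and among all 15316 promoters 49.1% were rich and 27.8% poor. The median content of G and C was 68.8% for the 50 promoters, 65.7% for the expressed genes and 63% for all. The printed SLC34A2 and PRTG windows belong to the rich kind, and those of VCAM1 and AQP4 hold hardly any CG.

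**Figure D5:**
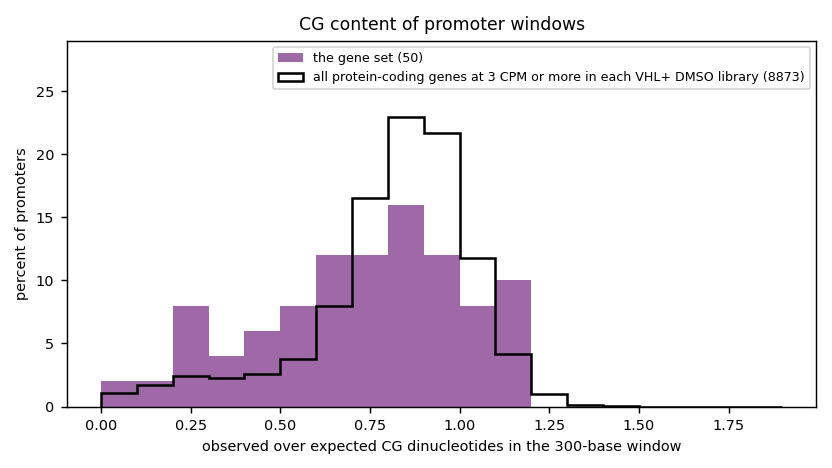
Observed over expected CG in 300-base promoters (x axis) for the gene set and for expressed protein-coding genes, as percent of promoters per bin (y axis). Both sets peak in the CG-rich range, and the gene set has more at the low end, 20% against 9.49% under 0.48.

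Short motifs were searched on both strands of the 50 promoters, with no merging of overlaps. ACGTG, the core of the HIF response element, was in 20% of them, against 27.4% for expressed genes and 23.7% for all. GCGTG, the other HIF core form, was in 52%, against 51.9% and 44.3%. TGACTCA, the AP-1 site, was in 6%, against 2.76% and 3.67%, and TATAAA in 8%, against 5.07% and 9.59%. A pattern for kB sites, bound by NF-kB, matched in 46%, against 37.6% and 35.9%. The VCAM1 sequence has kB matches that begin 77 and 62 bases before the start and a TATAAA 29 bases before it. A match of letters does not show that a factor binds.

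RNA of HIF, chromatin and other regulators was examined in lists, as VHL- over VHL+ under DMSO. In this contrast 15.9% of all tested genes were lower and 14.8% higher. Of 13 tested HIF and oxygen-sensing genes 2 were higher, 4 lower and 7 did not pass. EGLN3, the HIF hydroxylase that is itself a HIF target, was higher (log2 fold change 4.50), while HIF1A, VHL and EPAS1 (the gene of HIF-2 alpha) were lower (-2.31, -1.41 and -0.70). CA9, a classic HIF target, averaged 86.3 CPM in VHL- DMSO and 0.126 CPM in VHL+ DMSO cells (8.68).

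Among 14 enzymes and readers of DNA methylation 1 was higher, 5 lower and 8 did not pass. The de novo methyltransferases DNMT3A (-0.90) and DNMT3B (-0.50) were lower, as were TDG (-0.60) and MBD4 (-0.48), both glycosylases of base excision repair. Of 19 Polycomb genes 3 were higher, 2 lower and 14 did not pass, with EZH1 (1.03), RBBP7 (0.84) and JARID2 (0.53) higher and RBBP4 (-0.66) lower. Of 10 chromatin genes mutated in kidney cancer 4 were higher, none lower and 6 did not pass, with the demethylases KDM5C (1.01) and KDM6A (0.75), SETD2 (0.42) and BAP1 (0.40) higher. Of 9 BET proteins and partners none was higher, 4 lower (BRD3 -0.55, CDK9 -0.68, HEXIM1 -0.43, CREBBP -0.69) and 5 did not pass. Of 12 renal markers 3 were higher and 5 lower, with the cadherins CDH16 (-3.61) and CDH6 (-2.53) among the lower. Medians were 0.01 for the HIF list, -0.20 for DNA methylation, -0.07 for Polycomb, 0.19 for kidney cancer chromatin, -0.10 for BET and -0.16 for renal markers, against 0.00 for all tested genes. Of markers of other cell types, 1 of 6 endothelial genes was tested and was higher (ESAM, 1.05), as was 1 of 6 leukocyte genes (CSF1R, 1.38). Of 3 tested fibroblast and mural genes 1 was higher (PDGFRB, 2.44), and of 5 tested neuronal and melanocyte genes none passed in either direction. Under JQ1, where 19.7% of all tested genes were higher and 21.2% lower in VHL- cells, 2 HIF genes were higher and 5 lower, 2 and 4 of the DNA methylation list, 4 and 3 of the Polycomb list, 7 and 0 of the kidney cancer chromatin list, 2 and 2 of the BET list and 3 and 5 of the renal markers. These lists describe RNA only, and their part in the levels of the 70 genes was not tested.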

How the data were processed

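RNA of 12 RCC4 libraries, 3 per group, was sequenced by the submitters after depletion of ribosomal RNA. The deposited values are raw counts per Ensembl gene; tools named in the submitters' processing notes, in no stated order, are DESeq2 1.30.1, featureCounts, Subread 2.0.3 and STAR 2.7.8, with the build GRCh38. Strandedness of the counting was not given in the sources used here, so overlapping genes are uncertain. The authors' own comparison tables were not used. Gene types and positions came from GENCODE release 29, which held 58395 of the IDs. Printed levels are CPM on library totals. Counts were fitted over all 12 libraries with edgeR 4.0.16 (R 4.3.3, limma 3.58.1), with TMM scaling, the filter on low counts by group (20714 genes, 99.87% of counts), 1 mean per group and a prior count of 2 in fold changes. SE is the size of the log2 fold change over the square root of F, the test statistic. The fold change carries the prior count and F does not, so SE is approximate and can be too small at few reads. Only the VHL contrast under JQ1 was tested for the 70 genes, since the DMSO libraries chose them. The genes and lists were chosen with earlier results of these data known, and roles were assigned by hand after values were seen. Genes named singly were those highest in either JQ1 group, with the largest JQ1 differences, nearest the thresholds, close to each other, or in a shared family; others are named by role, and neighbours and a few further genes with values were picked after their values were seen. Of the genes that these rules name, 1 is not reported here. No pair of libraries agreed within sampling noise. The fit was tested on simulated data. Alternatives included DESeq2 1.42.0, limma-voom, other scalings and filters, a replicate block and leaving out each library.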

Additional observations from a re-analysis of the deposited data

Results flagged for a closer look

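The difference between VHL- and VHL+ cells was itself compared between treatments for every tested gene of the lists, as the log2 fold change under JQ1 minus that under DMSO (edgeR interaction contrast, Benjamini-Hochberg adjusted p). For VHL the difference was -1.29 (adjusted p = 0.00161), with log2 fold changes, VHL- over VHL+, of -2.70 under JQ1 and -1.41 under DMSO. For UHRF1, which recruits the maintenance DNA methyltransferase to replicating DNA, it was 1.398 (adjusted p = 0.0142), with 1.41 under JQ1 and 0.01 under DMSO. For CA9 it was -3.27 (adjusted p = 0.0179), with 5.41 under JQ1 and 8.68 under DMSO. For CDH6 it was 1.00 (adjusted p = 0.0481), with -1.53 under JQ1 and -2.53 under DMSO. No other tested gene of the lists passed.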

How the results depend on the processing

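All 70 genes stayed lower in VHL- JQ1 than in VHL+ JQ1 libraries, past the threshold, under each of 22 alternatives (1540 values, weakest log2 fold change -2.07, largest adjusted p 0.0126). The median log2 fold change was -6.12 with DESeq2 and -5.83 with limma-voom, which use other or no prior counts, and -5.26 to -5.02 with 1 library left out. At 5 CPM in place of 3, 46 genes met the rule, all among the 70. With 1 DMSO library left out, 64 to 76 did. The 1 gene at least 2-fold higher with JQ1 in VHL+ cells became 0 with total counts alone, 0 by the ratio of mean CPM and 2 without JQ1 replicate 3 of both lines, an alternative chosen after seeing the data. With 1 library left out it was 0 to 2 (0 without the second VHL+ DMSO library, 2 without the first VHL+ DMSO, the first VHL+ JQ1 or the third VHL+ JQ1 library). Leaving out TMM scaling shifts every gene by 0.16 (VHL- over VHL+ under JQ1) and -0.11 (JQ1 over DMSO in VHL+ cells) on the log2 scale. The replicate numbers were not taken to pair the samples: over the 6 pairs of groups, deviations of same-numbered libraries correlated at -0.26 to 0.335 (0.243, 0.165 and 0.0116 for VHL- JQ1 with VHL+ JQ1, and 0.274, 0.335 and 0.00886 for VHL- JQ1 with VHL- DMSO), and no pair of groups had all 3 over 0.1. With a replicate block, the count stayed at 70 and the median at -5.14. The DMSO contrast of COL1A1, not called at 0.12, ran from -0.21 to 0.40 with 1 library left out (-0.21 without the first VHL- DMSO and -0.10 without the third VHL+ DMSO library); the cause was not tested. Among the values of list genes under alternatives, 683 kept their direction and call, 34 lost and 6 gained a call. In the HIF, DNA methylation, Polycomb and kidney cancer chromatin lists, 21 genes were called under DMSO in the main fit. Under the alternatives it was 16 to 21, with 16 both without the low-count filter and without the third VHL+ DMSO library. In VHL- cells depth limits what can be read: 1 count was 0.0328 to 0.0647 CPM in the VHL- JQ1 libraries.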
